A study of Mus musculus with 6 samples.

Results

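Copying the genome once per cell cycle depends on a set of proteins whose genes are switched on together as cells pass from G1 into S phase, and 48 of these genes are described here in mouse pancreatic tumour cells. They were chosen by symbol, as DNA replication and G1/S genes, from a table of 24421 rows. Each of the 48 symbols was found, and all 48 lay above the level filter that 10748 genes passed (a mean of at least 1 FPKM, a read density per kilobase of a gene that is scaled to the size of the library). Cultured murine pancreatic ductal adenocarcinoma lines 6499c4, 6419c5 and 2838c3 were exposed for 16 h to 250 nM G-1, which activates the membrane oestrogen receptor GPER, or to the solvent DMSO (vehicle). The study asks how activating this receptor affects such tumour cells. G-1 and vehicle stand at 3 libraries each, 1 per line, and RNA was sequenced from 6 libraries in all. With 1 library per line and treatment, p-values for G-1 rest on the spread between the 3 lines, and whether the libraries came from separate cultures is not stated.

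Replication starts when the origin recognition complex, with Cdc6 and Cdt1, loads the ring-shaped MCM2-7 helicase onto DNA in G1. Cyclin E and its kinase, Cdc45 and the GINS complex then help to turn the loaded rings into moving forks. Polymerases, the sliding clamp PCNA, the single-strand binding complex RPA and a supply of deoxynucleotides keep those forks running. E2F transcription factors are the textbook activators of this gene set, and pancreatic ductal tumours of patients commonly carry lesions in the pathway that restrains them.

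Reads in genes numbered 5456069 (6419c5, G-1) to 8891141 (2838c3, vehicle) per library. The 48 genes took 0.677, 0.615 and 0.811% of the reads in G-1 libraries of 6499c4, 6419c5 and 2838c3, against 0.719, 0.641 and 0.807% in vehicle libraries. The lowest count of a member was 26 reads, for Ung in the G-1 library of 6419c5. All 6 markers of ductal or epithelial carcinoma were above 3 reads in every library, with summed levels of 3427 to 5844 FPKM with G-1 and 3416 to 5959 FPKM with vehicle. Epcam was far the lowest of them, with 1.14 FPKM (20 reads) with G-1 and 0.284 FPKM (5 reads) with vehicle in 2838c3. In the other lines it had 3.65 to 5.81 FPKM. Summed levels of 6 fibroblast markers were 0.405 to 1.05 FPKM with G-1 and 0.433 to 1.11 FPKM with vehicle, with Col1a2, Dcn and Lum at no more than 3 reads in any library. Leukocyte markers (6 genes) summed to 2.03 to 3.35 FPKM with G-1 and 0.788 to 2.77 FPKM with vehicle, and endothelial markers (4 genes) to 0.121 to 1.13 and 0.0665 to 1.82 FPKM. Of 5 acinar markers, 4 were in the table and summed to 0.166 to 7.31 FPKM with G-1 and 0.633 to 4.07 FPKM with vehicle, and the 4 islet markers were at 0 in each library.

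The members were expressed over a wide range. Pcna, the sliding clamp, had the highest mean level over the 6 libraries at 270.5 FPKM, followed by Rrm2, the S-phase subunit of ribonucleotide reductase, at 249 FPKM. The helicase subunits Mcm7 and Mcm3 followed at 152 and 151 FPKM, and the activator E2f2 was the lowest member at 4.74 FPKM.

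To show the DNA to which E2F factors could bind, the RefSeq promoters (GRCm38.p6, 250 bases before to 50 after the start) were searched for the E2F-type words TTTCCCGC, TTTGGCGC, TTTCGCGC and TTTGCCGC on both strands. A promoter was on hand for 39 of the 48 members, and 15 of those 39 (38.5%) held at least 1 of the words in any of their promoters. Counted by gene in the same way, the share was 5.03% of the 8237 tested genes with a promoter and 2.6% of all 27025 genes with one. Of 20 G2/M and mitosis genes with a promoter, 1 had such a word. The shorter words CCAAT, which NF-Y binds, and GGGCGG, which SP factors bind, are common in promoters in general. CCAAT was in a promoter of 64.1% of these members against 43.2% of these tested genes, and GGGCGG of 76.9% against 72%. A match is a description of the letters and not a site shown to be bound. The promoters of 3 genes are shown, picked from those with such a word before the start: Mcm6 and Pola1 are among the members that were lower with G-1 in every line, and Mcm5 is the helicase subunit that differed most between lines. Other members described below, among them Mcm3, Rfc5, Rpa3, Dut and Ung, had none of the words in the 250 bases before the start. The count of 15 also covers the 50 bases after the start, so a gene without a word before it can be among the 15. Each line gives the 160 bases before the RefSeq start on the gene's own strand, with the E2F-type words in capitals. The run of capitals in Mcm5 and the first one in Mcm6 each hold a pair of overlapping words, 1 on each strand, and the word in Pola1 is on the other strand.
Mcm6 (chr1:128359706-128359865, minus strand): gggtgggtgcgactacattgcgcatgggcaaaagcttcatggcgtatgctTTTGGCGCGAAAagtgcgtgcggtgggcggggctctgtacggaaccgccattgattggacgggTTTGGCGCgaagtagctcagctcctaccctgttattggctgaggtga
Mcm5 (chr8:75109349-75109508, plus strand): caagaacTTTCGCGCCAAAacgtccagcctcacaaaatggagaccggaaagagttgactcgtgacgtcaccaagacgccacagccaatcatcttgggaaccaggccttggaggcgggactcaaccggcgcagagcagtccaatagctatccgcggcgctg
Pola1 (chrX:93632156-93632315, minus strand): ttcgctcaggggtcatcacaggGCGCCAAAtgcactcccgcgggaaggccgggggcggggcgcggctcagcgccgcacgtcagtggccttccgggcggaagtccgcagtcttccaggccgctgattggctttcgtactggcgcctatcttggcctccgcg
In Mcm6 the words began 110, 106 and 47 bases before the start, in Mcm5 153 and 149 bases before it, and in Pola1 138 bases before it.

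With G-1, no replication or G1/S gene passed the test over all genes, and the differences from vehicle were small. Differences are given as G-1 minus vehicle on the log2(FPKM + 1) scale, which understates changes of low genes, from limma with line as block and Benjamini-Hochberg adjustment over all 10748 genes. At an adjusted p threshold of 0.05, 0 of 48 members were called, as against 0.0279% of all genes (3 genes), and the smallest adjusted p of a member was 0.456. At an unadjusted p under 0.05 stood 4 members, Cdc6, Mcm3, Mcm6 and Uhrf1, all lower, against 3.96% of all genes lower, 6.09% higher and 10.1% in either direction. With limma-voom on the reads recovered from the FPKM values, 0 members were called among 108 called genes, and the smallest adjusted p of a member was 0.139. In that fit 7 members had an unadjusted p under 0.05, all lower, against 7.27% of all genes lower and 13.8% in either direction. With limma and read total scaling 1 member was lower at that p, against 2.87% of all genes. Without the variance trend it was also 1, against 3.45%, and without line as block 0, against 0.0651%. The other settings on all 6 libraries gave 4 to 6 lower members, against 3.11 to 4.64%. The groups of 3 libraries overlapped for every member, and 1.94% of all genes had groups that did not.

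The signs leaned to lower levels with G-1. A total of 18 of the 48 genes (37.5%) were lower in all 3 lines, against 17.5% of all genes tested, and 1 gene, Dut, was higher in all 3, against 15.4% of all genes. The median difference was -0.06 over the members and -0.0063 over all genes. It moved to -0.095 without 2838c3, to -0.038 without 6419c5 and to -0.025 without 6499c4. By line, 37 of 48 members were lower with G-1 in 6499c4, 33 in 6419c5 and 29 in 2838c3, where 49.8, 50.8 and 52.6% of all genes were lower. Summed over the members, the level with G-1 was 94.1, 96.3 and 99.5% of that with vehicle in these lines. In bulk RNA, fewer cells in S phase and less of these RNAs per cell cannot be told apart. Of the 32 members that share no exon base with another gene in the GENCODE annotation, 14 were lower in all lines and 1 was higher. Exon overlaps here and below are over all transcripts annotated for a gene, which need not be those counted.

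**Figure D1:**
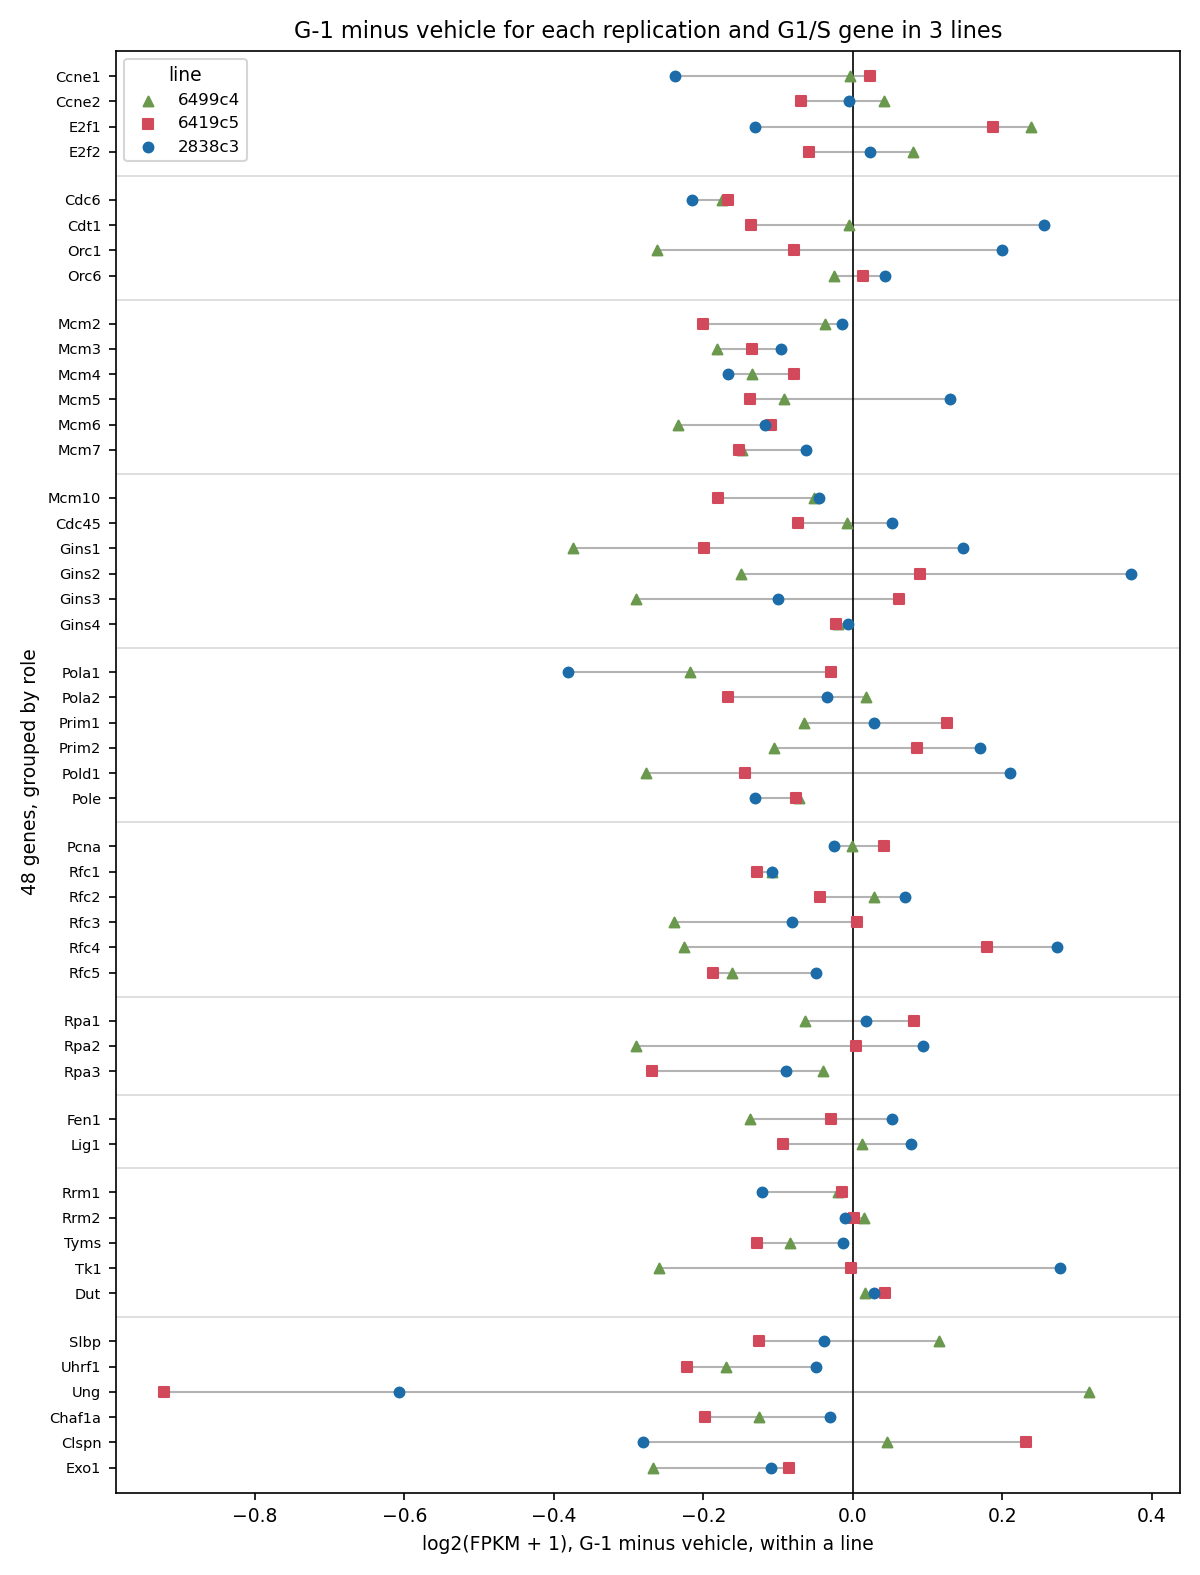
Difference between G-1 and vehicle on the log2(FPKM + 1) scale (x axis) for each of the 48 genes (y axis, grouped by role), with 1 point per line and a grey bar over the range of the 3 lines. Most points of the MCM2-7 block lie left of 0, the exception being Mcm5 in 2838c3, and Ung has the widest range.

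The clearest shared sign was in the helicase itself. Mcm2, Mcm3, Mcm4, Mcm6 and Mcm7 were lower with G-1 in each line, 5 of the 6 MCM2-7 subunits, and the median difference over the 6 was -0.12. Mcm3 had 116, 108 and 207 FPKM in G-1 cells of 6499c4, 6419c5 and 2838c3, against 132, 119 and 221 FPKM in vehicle cells. Mcm6 had 118, 91.7 and 159 FPKM in G-1 cells, in the same order of lines, against 139, 99.1 and 172 FPKM in vehicle cells. Both genes were lower with G-1 within each line, but lines differed more than treatments, so the groups overlap. The difference was -0.14 (SE 0.054, adjusted p = 0.470) for Mcm3 and -0.15 (SE 0.057, adjusted p = 0.456) for Mcm6.

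Mcm4 had 88.1, 158 and 121 FPKM with G-1 in 6499c4, 6419c5 and 2838c3, against 96.8, 167 and 136 FPKM with vehicle (-0.13, SE 0.055, adjusted p = 0.500). Mcm7 had 153, 114 and 170 FPKM with G-1, against 170, 127 and 177 FPKM with vehicle (-0.12, SE 0.055, adjusted p = 0.515). Of the exon bases of Mcm7, 12.6% overlap other genes, among them Ap4m1 and Cops6 on the other strand. Mcm2 had 106, 80.2 and 148 FPKM with G-1, against 109, 92.3 and 149 FPKM with vehicle (-0.08, SE 0.062, adjusted p = 0.666). For Mcm2 the gap was widest in 6419c5 and close to 0 in the other lines. Mcm5 had 78.3, 62.9 and 152 FPKM with G-1, against 83.5, 69.4 and 139 FPKM with vehicle (-0.03, SE 0.069, adjusted p = 0.893). Its ratio of G-1 to vehicle reads was 1.09 in 2838c3 (exact binomial 95% interval 1.05 to 1.14, counting error only), against 0.937 (0.885 to 0.992) in 6499c4 and 0.907 (0.842 to 0.978) in 6419c5, so the sign differed between lines; whether the response differed could not be tested with 1 library per line and treatment. Summed over MCM2-7, the level with G-1 was 90.4% of that with vehicle in 6499c4, 91.3% in 6419c5 and 96.1% in 2838c3.

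**Figure D2:**
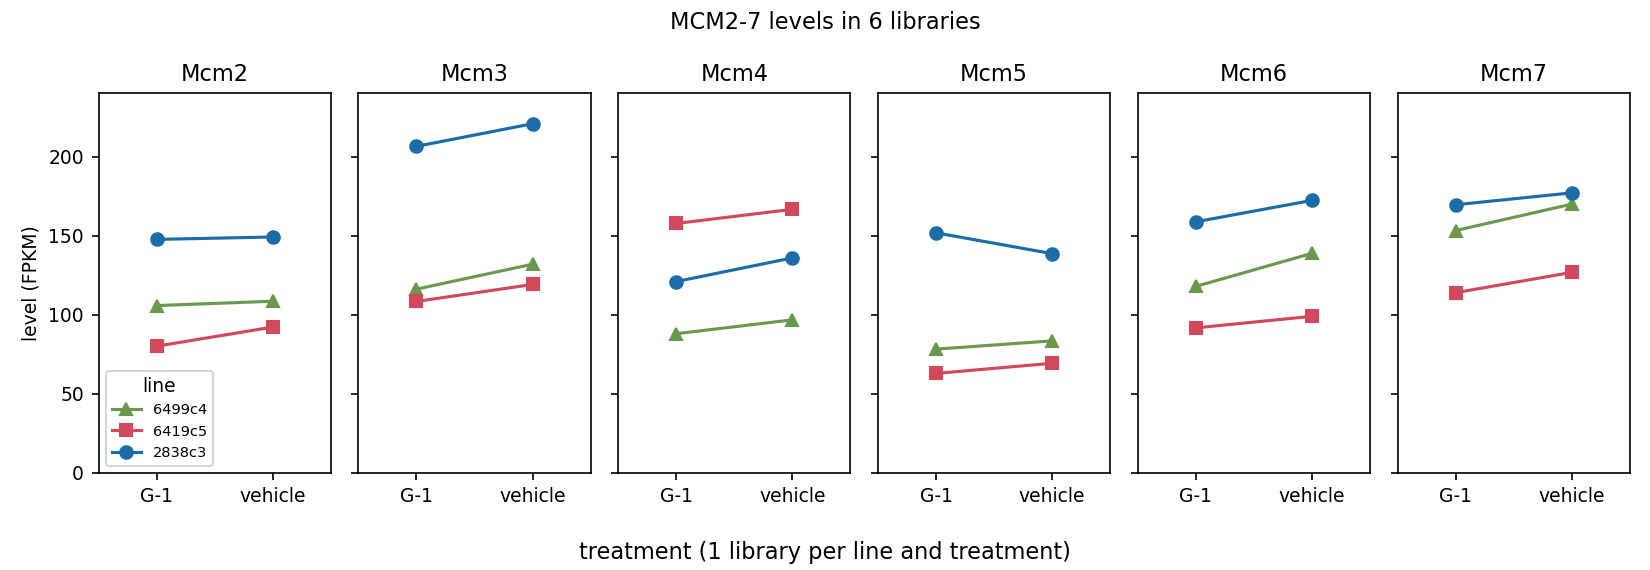
Level in FPKM (y axis) of each MCM2-7 gene in the G-1 and vehicle library of each line (x axis), 1 panel per gene, with a line joining both libraries of a cell line. The line joining them rises to vehicle in every panel and cell line except Mcm5 in 2838c3, and Mcm4 is the only panel in which 6419c5 is highest.

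Among the licensing loaders, Cdc6, the ATPase that brings MCM2-7 to the origin, was lower with G-1 in all lines. It had 16.3, 15.4 and 19.2 FPKM with G-1 in 6499c4, 6419c5 and 2838c3, against 18.6, 17.5 and 22.4 FPKM with vehicle (-0.19, SE 0.072, adjusted p = 0.466). Orc6, the most abundant loader, had 57.7, 66.3 and 96.4 FPKM with G-1, against 58.7, 65.7 and 93.5 FPKM with vehicle. Orc6 levels thus followed the line and hardly the treatment. Cdt1, the partner of Cdc6, had a read ratio of 1.20 (1.11 to 1.29) in 2838c3, against 0.997 (0.91 to 1.09) in 6499c4 and 0.909 (0.825 to 1.00) in 6419c5. The median of the 4 loaders was -0.02.

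Helicase activation genes went both ways in 6419c5 and 2838c3, where 4 and 3 of the 6 were lower with G-1. In 6499c4 all 6 were lower. The 6 genes had a median of -0.05, and Mcm10, an initiation factor, and Gins4 were lower in all lines. Gins4, the most abundant of the role, had 57.4, 45.2 and 59.3 FPKM with G-1, against 58.2, 46.0 and 59.5 FPKM with vehicle in 6499c4, 6419c5 and 2838c3. Each of the Gins4 read ratios, 0.984 to 0.996, had an interval that includes 1. The GINS subunits are known to act as 1 complex of 4, yet within 2838c3 Gins2 had a read ratio of 1.30 (1.14 to 1.49) while Gins4 had 0.996 (0.895 to 1.11). Of the annotated exon bases of Gins2, 67.3% overlap Gse1 on the other strand, and the strandedness of the counting is not known here. Its annotated exons cover 4097 bases, while the value of 1 read implied a length of 1038 bases. Whether the counted bases of Gins2 are shared is thus not known.

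Pola1, the catalytic subunit of the polymerase that primes each new strand, had the most negative difference among the genes lower in all lines. Its level was 16.8, 9.65 and 13.0 FPKM with G-1 in 6499c4, 6419c5 and 2838c3, against 19.7, 9.87 and 17.3 FPKM with vehicle (-0.21, SE 0.093, adjusted p = 0.511). The gap was largest in 2838c3, with a read ratio of 0.754 (0.677 to 0.84), and within counting error in 6419c5, at 0.978 (0.835 to 1.14). Pole, the leading-strand polymerase, was also lower in all lines, and the median of the 6 polymerase and primase genes was -0.07. Prim1, the primase subunit and most abundant of the role, had 61.1, 56.9 and 45.0 FPKM with G-1, against 64.0, 52.1 and 44.1 FPKM with vehicle, with signs that differed between lines.

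Pcna levels differed little between treatments. The clamp gene had 254, 205 and 352 FPKM with G-1 in 6499c4, 6419c5 and 2838c3, against 254, 199 and 358 FPKM with vehicle, and its read ratios of 0.999 (0.947 to 1.05), 1.03 (0.959 to 1.10) and 0.983 (0.939 to 1.03) all had intervals that include 1. Of the clamp loader, Rfc5 had 49.3, 38.5 and 40.1 FPKM with G-1, against 55.3, 44.0 and 41.5 FPKM with vehicle (-0.13, SE 0.063, adjusted p = 0.527). Rfc1, the large loader subunit, was likewise lower in all lines. Of the exon bases of Rfc5, 10.7% overlap Wsb2 on the other strand. Rfc4 went both ways, with read ratios of 0.852 (0.739 to 0.981) in 6499c4 and 1.22 (1.05 to 1.40) in 2838c3, but 12.7% of its exon bases overlap Eif4a2 on the other strand.

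In RPA, Rpa3 had 45.7, 32.2 and 37.7 FPKM with G-1 in 6499c4, 6419c5 and 2838c3, against 47.1, 39.1 and 40.1 FPKM with vehicle (-0.13, SE 0.070, adjusted p = 0.558). Rpa1, the large subunit that holds most of the DNA contacts, had 72.0, 80.4 and 64.5 FPKM with G-1, against 75.3, 75.9 and 63.7 FPKM with vehicle. Rpa3 was lower in each line, while Rpa1 was lower in 6499c4 and higher in the other lines. Each of the Rpa3 read ratios, 0.826 to 0.972, had an interval that includes 1. For Okazaki fragment maturation, Fen1, the flap endonuclease, had 53.9, 53.7 and 63.0 FPKM with G-1, against 59.4, 54.9 and 60.7 FPKM with vehicle. Of its exon bases, 84.2% are shared with other genes.

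Of the nucleotide supply genes, the most abundant differed little between treatments. Rrm2 had 237, 292 and 219 FPKM with G-1 in 6499c4, 6419c5 and 2838c3, against 234, 292 and 221 FPKM with vehicle. Dut, which destroys dUTP before it can enter DNA, had 49.2, 43.4 and 60.4 FPKM with G-1, against 48.7, 42.1 and 59.2 FPKM with vehicle (0.03, SE 0.058, adjusted p = 0.892). Although its 3 signs were alike, each of the Dut read ratios, 1.01 to 1.03, had an interval that includes 1. Tk1, the thymidine salvage kinase, had a ratio of 0.834 (0.761 to 0.913) in 6499c4, 0.999 (0.876 to 1.14) in 6419c5 and 1.21 (1.11 to 1.33) in 2838c3, so its reads were lower, level and higher by line.

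The chromatin, repair and checkpoint genes had the most negative role median, -0.13. Uhrf1, which carries DNA methylation through replication, had 65.0, 58.9 and 106 FPKM with G-1 in 6499c4, 6419c5 and 2838c3, against 73.2, 68.9 and 110 FPKM with vehicle (-0.15, SE 0.061, adjusted p = 0.485). Exo1, a mismatch repair exonuclease, had 10.3, 11.2 and 13.8 FPKM with G-1, against 12.6, 11.9 and 15.0 FPKM with vehicle (-0.15, SE 0.084, adjusted p = 0.568). Both were lower with G-1 in every line, as was Chaf1a, the large subunit of the histone chaperone CAF-1. Of the exon bases of Chaf1a, 52.5% overlap Ubxn6 on the other strand.

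Ung, the glycosylase that removes uracil from DNA, had the widest spread of all. It had 11.7, 2.28 and 5.37 FPKM with G-1 in 6499c4, 6419c5 and 2838c3 (197, 26 and 96 reads), against 9.22, 5.21 and 8.69 FPKM with vehicle (177, 78 and 156 reads). Its level was higher with G-1 in 6499c4, with a read ratio of 1.27 (1.03 to 1.57), and lower in 6419c5 at 0.437 (0.269 to 0.69) and in 2838c3 at 0.617 (0.473 to 0.801). The mean difference was -0.40 (SE 0.216, adjusted p = 0.562). The signs thus split with 1 line against the other two, on counts among the lowest of the members, and a difference in response between lines could not be tested.

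Cyclin E and E2F genes, which act upstream of the rest, showed no common sign. The role median was 0.00, and none of Ccne1, Ccne2, E2f1 and E2f2 had the same sign in all lines. E2f1 had 17.1, 12.3 and 21.7 FPKM with G-1 in 6499c4, 6419c5 and 2838c3, against 14.3, 10.7 and 23.9 FPKM with vehicle. Ccne2 had 15.2, 14.7 and 32.4 FPKM with G-1, against 14.8, 15.4 and 32.5 FPKM with vehicle, and so differed by line and hardly by treatment.

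Within single lines, the counts were read against all genes in the same way. The read ratio lay below 1 beyond counting error for 19 members in 6499c4, 10 in 6419c5 and 11 in 2838c3, against 17.7, 8.76 and 18.2% of all genes. It lay above 1 for 2, 1 and 7 members in these lines, against 17.9, 7.77 and 12.6% of all genes. Members lower beyond counting error exceeded the share of all genes in both 6499c4, at 39.6% of the 48, and 6419c5, at 20.8%. Few were higher in either line, and in 2838c3 the counts on both sides were near those of all genes. These counts depend on read depth, which was lowest in 6419c5, and on the reads of each gene. A gene with more reads clears 1 with a smaller change, and all genes were not matched to the members by level.

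Other genes of the pathway, from 112 listed, were set beside the members. None was called for G-1 in limma. Their counts of genes alike in all lines stand against 17.5% of all genes lower and 15.4% higher, as above. Of 16 further licensing and initiation genes, 4 were lower and 0 higher in all lines, with a median of -0.06, among them Topbp1, a scaffold for origin firing (-0.20, SE 0.066, adjusted p = 0.394). Of 27 fork and maturation genes, 9 were lower and 3 higher (median -0.06). Atad5 and Usp1 had the largest differences among those lower in all lines. Among those higher in all lines, Rnaseh2c, a subunit of RNase H2, was highest at 0.39 (SE 0.095, adjusted p = 0.319), followed by Dscc1. Of 15 further nucleotide supply genes, 8 were lower and 0 higher (median -0.10). Samhd1 had the largest difference among those lower, followed by Atic, a purine synthesis enzyme, at -0.22 (SE 0.053, adjusted p = 0.302).

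Of 28 regulators of G1/S, 27 were tested, of which 11 were lower and 7 higher in all lines (median -0.05). Cdk6, a cyclin D kinase, had 8.28, 11.8 and 12.2 FPKM with G-1 in 6499c4, 6419c5 and 2838c3, against 11.5, 16.3 and 14.4 FPKM with vehicle (-0.37, SE 0.087, adjusted p = 0.302). Cdkn1b, which encodes the inhibitor p27, had 34.5, 20.1 and 32.8 FPKM with G-1, against 27.5, 16.6 and 28.5 FPKM with vehicle (0.26, SE 0.068, adjusted p = 0.349). Cdkn2d, which encodes the inhibitor p19 of the INK4 family, was at 0.39 (SE 0.136, adjusted p = 0.426) and Rb1, the retinoblastoma gene, at -0.26 (SE 0.098, adjusted p = 0.461). Of these 4 genes, Cdk6 and Rb1 were lower and Cdkn1b and Cdkn2d higher with G-1 in all lines, and none passed the test. Of 26 G2/M and mitosis genes, 3 were lower and 5 higher in all lines, with a median of -0.03. Mki67, the proliferation antigen, was at -0.15 (SE 0.069, adjusted p = 0.515) and Ube2c, which ends mitosis with the anaphase-promoting complex, at 0.20 (SE 0.054, adjusted p = 0.349). Whether replication genes and mitosis genes differ in their response was not tested.

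The lines themselves differed far more than the treatments. Each line has 2 libraries, 1 per treatment, and the same limma fit was used with treatment as a term. P-values for lines thus rest on how the treatment difference varies between lines, with 2 residual degrees of freedom. No line has a repeat library of the same treatment. In 29 of the 48 genes both libraries of 2838c3 lay above the other 4 libraries, against 26% of all genes, and in 3 genes they lay below, against 24.2%. Both libraries of 6419c5 lay below the other 4 in 20 members (18.5% of all genes) and above in 6 (19.6%), and those of 6499c4 below in 9 (23.1%) and above in 5 (21.9%).

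In 6419c5 against 2838c3, 32 members were called lower and 6 higher, while 25.3% of all genes were lower and 26.2% higher, and the median member difference was -0.40. Without the G-1 library of 6419c5, 19 were lower and 1 higher, and without its vehicle library 20 were lower and 5 higher. The median was -0.36 without the G-1 library of 2838c3 and -0.43 without its vehicle library, and fewer members were called in both directions. In 6499c4 against 2838c3, 25 members were lower and 3 higher, against 28.9 and 26.6% of all genes, with a median of -0.31. The 3 were Prim1, Rfc5 and Rpa3, and Rpa3, at 0.25 (adjusted p = 0.0402), was called lower at -0.32 (adjusted p = 0.0295) with a correction for GC content and length. The median was -0.29 without the vehicle library of 2838c3, -0.27 without its G-1 library and -0.23 without the G-1 library of 6499c4. Fewer members were then called in both directions. Scaling to read totals in place of the authors' scale gave 18 lower and 7 higher for this pair, with the median of all genes shifted to 0.11 and the median of the members at -0.18, and quantile scaling gave 21 lower and 6 higher.

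In 6499c4 against 6419c5, 18 members were higher and 8 lower, against 21.3 and 23.7% of all genes, with a median of 0.16. Without the G-1 library of 6419c5 these counts were 6 and 4, without its vehicle library 11 and 4, and without the G-1 library of 6499c4 13 and 5. Scaled to read totals they were 24 and 7, with the median of all genes at 0.10 and that of the members at 0.26. The replication set as a whole was thus lowest in 6419c5 and highest in 2838c3 by these medians and counts, under each of these scalings.

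**Figure D3:**
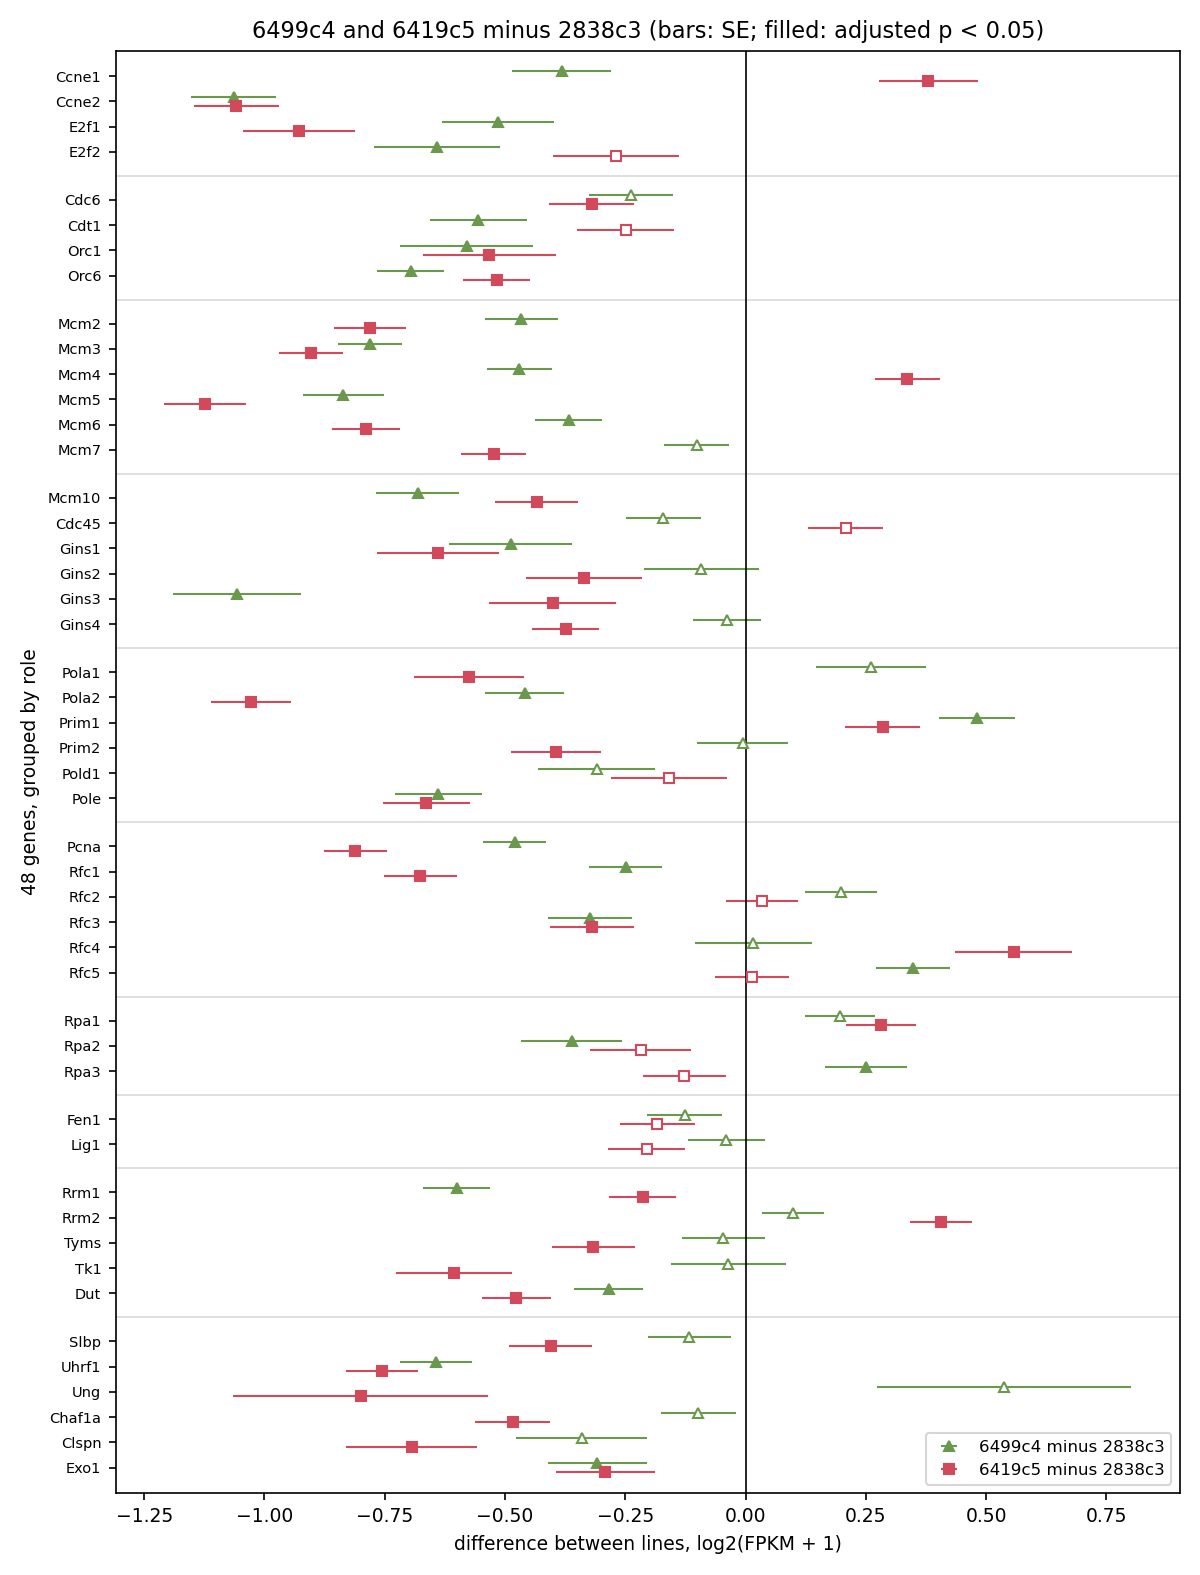
Difference of 6499c4 (triangles) and 6419c5 (squares) from 2838c3 on the log2(FPKM + 1) scale (x axis) for each of the 48 genes (y axis, grouped by role), with bars of 1 SE and filled symbols where the adjusted p was under 0.05. Most symbols lie left of 0, and Ccne1, Mcm4, Prim1, Rfc4, Rpa1 and Rrm2 have a filled square to the right.

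After Ung, Mcm5 had the widest gap between line means of the 48 genes. With line means of 80.9 FPKM in 6499c4, 66.2 FPKM in 6419c5 and 145 FPKM in 2838c3, it was -1.12 in 6419c5 against 2838c3 (SE 0.08, adjusted p = 7.02e-05) and -0.84 in 6499c4 against 2838c3 (adjusted p = 0.000174). Ccne2, which encodes cyclin E2, was lower by about the same amount in both lines, at -1.06 in 6499c4 (adjusted p = 6.78e-05) and -1.06 in 6419c5 (adjusted p = 0.000104), each against 2838c3. Of its exon bases 17.4% overlap Ints8 on the other strand. Its sister gene Ccne1 was lower than in 2838c3 in 6499c4, at -0.38 (adjusted p = 0.0158, and 0.165 without the vehicle library of 2838c3 and 0.095 without that of 6499c4), but higher in 6419c5. Ccne1 was at 13.2, 23.3 and 16.1 FPKM with G-1 and 13.2, 22.9 and 19.1 FPKM with vehicle in 6499c4, 6419c5 and 2838c3, and was 0.38 in 6419c5 against 2838c3 (SE 0.10, adjusted p = 0.0178). For the gap to 6419c5 the adjusted p was 0.147 and 0.0626 without the G-1 or the vehicle library of 6419c5 and 0.175 without the G-1 library of 2838c3.

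Pola2, the accessory subunit of polymerase alpha, had 37.0, 23.0 and 50.3 FPKM with G-1 in 6499c4, 6419c5 and 2838c3 and 36.5, 26.0 and 51.6 FPKM with vehicle, a difference of -1.03 in 6419c5 against 2838c3 (adjusted p = 8.98e-05). Its partner Pola1 was 0.83 in 6499c4 against 6419c5 (adjusted p = 0.00101) and 0.26 in 6499c4 against 2838c3 (adjusted p = 0.0887), where the libraries overlapped, with 16.8 FPKM (G-1) and 19.7 FPKM (vehicle) in 6499c4 and 13.0 FPKM (G-1) and 17.3 FPKM (vehicle) in 2838c3. Gins3 was lowest in 6499c4, at 3.67 FPKM with G-1 and 4.71 FPKM with vehicle, against 7.31 and 6.96 FPKM in 6419c5 and 9.38 and 10.1 FPKM in 2838c3. It was -1.06 in 6499c4 against 2838c3 (adjusted p = 0.000465). E2f1 was -0.93 in 6419c5 against 2838c3 (adjusted p = 0.000587), Mcm3 -0.90 (adjusted p = 6.31e-05) and Pcna -0.81 (adjusted p = 9.07e-05). Ung was 1.34 in 6499c4 against 6419c5 (SE 0.26, adjusted p = 0.00561). Without the G-1 library of 6419c5 Ung was 0.95 (adjusted p = 0.0885), whereas the calls of Mcm5, Ccne2, Pola2, Mcm3, E2f1 and Pcna in 6419c5 against 2838c3 held without any 1 library.

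The helicase subunits, which enter the complex in equal numbers, had RNA levels per length that were unequal and ordered differently by line. In 6419c5 Mcm4 was the most abundant of the 6 in both libraries, at 158 FPKM with G-1 and 167 FPKM with vehicle, while in 2838c3 it was the least abundant in both, at 121 FPKM with G-1 and 136 FPKM with vehicle. Mcm5 was the least abundant in both libraries of 6499c4 and of 6419c5. The highest subunit stood above the lowest by a ratio of 1.96 with G-1 and 2.04 with vehicle in 6499c4, 2.51 with G-1 and 2.40 with vehicle in 6419c5, and 1.71 with G-1 and 1.62 with vehicle in 2838c3. Mcm4 was 0.34 in 6419c5 against 2838c3 (SE 0.07, adjusted p = 0.00488; 0.0527 without the G-1 library of 6419c5), where the other 5 subunits were all called lower.

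The 6 members called higher in 6419c5 against 2838c3 were compared with their chromosomal neighbours, a comparison made after their values were seen. Positions were taken by symbol from the GENCODE annotation of GRCm38, and neighbours were tested genes within 5 Mb. Mcm4 (chromosome 16, 15623897 to 15637400, minus strand) was at 0.34, and its 79 neighbours had a median of 0.57, of which 70 were higher. Rfc4 (chromosome 16, 23113943 to 23127737, minus strand) was at 0.56 and its neighbours at 0.44. Cdc45, the third member on that chromosome, was at 0.21 (adjusted p = 0.058) and its neighbours at 0.55. Along the whole of chromosome 16 the median was 0.62 over 335 tested genes, against 0 over all genes.

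Ccne1 on chromosome 7 lay among neighbours with a median of 0.51, Rpa1 on chromosome 11 among neighbours at 0.38 and Prim1 on chromosome 10 among neighbours at 0.24. Rrm2 on chromosome 12 stood apart, at 0.41 with its neighbours at 0.04. Rrm2 was also the 1 of the 6 whose call held without the G-1 library of 6419c5. Across the 48 genes the correlation of a gene's difference with that of its neighbours was 0.58 (Pearson's r; Spearman's rho 0.50) for 6419c5 against 2838c3, 0.32 (0.31) for 6499c4 against 2838c3, 0.52 (0.36) for 6499c4 against 6419c5 and 0.08 (0.20) for G-1 against vehicle. These are descriptions over 48 genes that share libraries and in part neighbours, and the copy number of these chromosomes was not tested.

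**Figure D4:**
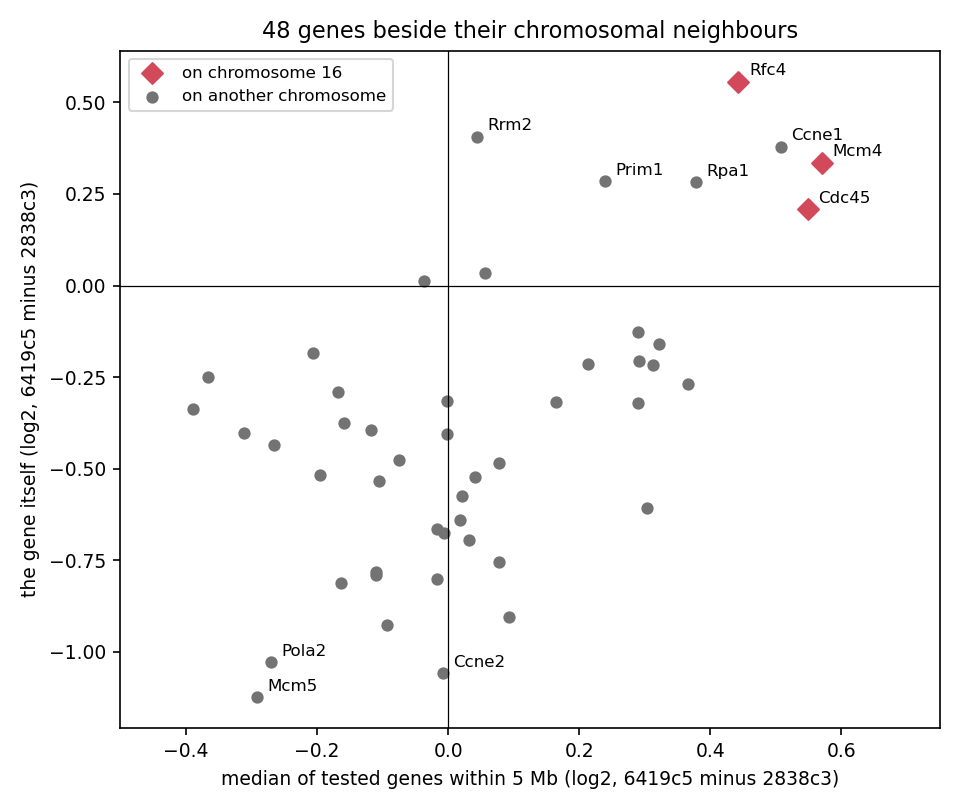
Difference of 6419c5 from 2838c3 (log2 scale) for each of the 48 genes (y axis) against the median difference of the tested genes within 5 Mb of it (x axis), with diamonds for the 3 genes on chromosome 16. Mcm4, Rfc4, Cdc45 and Ccne1 lie at the upper right among neighbours that are also higher, and Rrm2 is high among neighbours near 0.

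Regulators of the same step differed between lines too, and the 3 genes given here were chosen after their values were seen. Cdkn1a, which encodes the inhibitor p21, had line means of 5.69, 15.8 and 29.8 FPKM in 6499c4, 6419c5 and 2838c3, and Cdkn2a, which encodes p16 and p19ARF, had 168, 98.9 and 49.0 FPKM in the same order. The order of the lines for Cdkn2a was the reverse of that for Cdkn1a and for the cyclin gene Ccnd1, which had 162, 276 and 362 FPKM. Each of the 3 genes was called in every pair of lines, with the largest difference for Cdkn1a at -2.20 in 6499c4 against 2838c3 (SE 0.095, adjusted p = 3.51e-06). Of the 26 G2/M and mitosis genes, 19 were lower and 1 higher in 6499c4 against 2838c3, with a median of -0.63, against 28.9 and 26.6% of all genes. In 6419c5 against 2838c3, 15 were lower and 2 higher, with a median of -0.29, against 25.3 and 26.2% of all genes. Replication genes thus had their lowest median in 6419c5 and mitosis genes in 6499c4, and whether the lists differ was not tested.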

How the data were processed

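The authors deposited FPKM values for 6 libraries in 1 table, and the unit comes from the name they gave it. The submitters' processing notes name STAR and DESeq2 but give no role for them. No source used here gives the genome build, annotation, strandedness or counting rule. Within a library the values of each gene were whole multiples of 1 read within 0.01 reads, which gave the reads and exact binomial 95% intervals of read ratios, covering counting error only. The library scale had the ratios of median-of-ratios size factors, and read totals deviated from it by up to 7.86%. limma 3.58.1 (R 4.3.3, trend, 2 residual and 5.35 prior degrees of freedom) was fitted to log2(FPKM + 1) of genes averaging 1 FPKM or more, with line and treatment as terms. The fit was tested on simulated data. Lines pair the libraries by design, and deviations of both libraries of a line correlated at 0.882, 0.871 and 0.906 in 6499c4, 6419c5 and 2838c3. Genes with values in every library are those alike in all lines (up to 8 per direction), the 10 with the widest gap between lines, the most abundant of each role and MCM2-7, and other named members were chosen after their values were seen. From other lists the rule took up to 2 genes per direction, and only some of those taken are given with values. Members and lists were chosen with earlier results of these data known.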

Additional observations from a re-analysis of the deposited data

How the results depend on the processing

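No replication or G1/S gene was called for G-1 under any of the settings run. The number of genes called for G-1 over the whole table, 3, was 1 with a pseudocount of 0.1 or 0.01, 0 without the level filter, 6 with a filter of 5 FPKM, 0 without the variance trend, 8 with robust moderation, 108 with limma-voom and 0 with no replicate block, that is without the pairing by line, and 0 to 11 when 1 line was left out. The member median for G-1 ranged over -0.095 to -0.025 when 1 line was left out, and the difference of Mcm5 over -0.12 to 0.019. With a correction for GC content and length, Dut was at -0.0042 for G-1. Rpa3, called higher at 0.25 (adjusted p = 0.0402) in 6499c4 against 2838c3, was called lower at -0.32 (adjusted p = 0.0295). The member median was then -0.48 in 6419c5 against 2838c3 and 0.18 in 6499c4 against 6419c5, and the cause of these shifts was not tested.

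In 6499c4 against 2838c3 the members called higher, 3, were 6 with quantile scaling, 7 with read total scaling, 5 with limma-voom and 5 with the GC and length correction, and the median was -0.24 with quantile and -0.18 with read total scaling. In 6499c4 against 6419c5 the median was 0.23 with quantile and 0.26 with read total scaling. Read total scaling turned the split of all genes to 3674 higher and 2404 lower in 6499c4 against 2838c3, and to 3096 and 2026 in 6499c4 against 6419c5. Leaving out 1 library gave 3430 to 5677 called genes, 1 to 6 members higher and 19 to 31 lower in 6419c5 against 2838c3. In 6499c4 against 2838c3 it gave a median of -0.32 to -0.23, with fewer members called lower in each case and no more called higher. In 6499c4 against 6419c5 it gave 2612 to 4708 genes, 6 to 18 members higher, 4 to 8 lower and a median of 0.093 to 0.17. A line left with 1 library is assumed to vary like the others. Of the other values for single genes, 1560 kept their direction and side of the threshold and 196 kept the direction only. The 26 reads of Ung in 1 library set the weakest precision among the members.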
